A study of Mus musculus with 5 samples.

Results

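The genes described here are 9 components and regulators of the complement system, C1qa, C1qb, C1qc, C3, C4b, Cfb, Serping1, C3ar1 and Cd55. They were chosen by their measured levels and their differences between pools in these same data, so what follows is a description of their levels, with no test of them. All 9 have a column among the 26189 genes of both deposited molecule tables, and all were read in the 1656 kept cells. Complement is a cascade of plasma and tissue proteins that tags surfaces for uptake and releases inflammatory peptides. C1q recognises immune complexes and dying cells and starts the classical pathway, in which C4 is cleaved, and all pathways meet in the cleavage of C3. In the atherosclerotic artery wall, macrophages are a known source of C1q and stromal cells a known source of several other components, while inhibitors such as C1 inhibitor and CD55 restrain the cascade.

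The material was 1 sample of live CD45-positive cells sorted from the aortic arch of female mice, 12 weeks old per the labels, read by single-cell RNA sequencing. It joined 2 pools of cells told apart by sample tags, C57BL/6J wild-type mice and mice of the strain C57BL/6N-Saa3tm1.1(KOMP)Vlcg/MbpMmucd, called Saa3-/-, which lack the acute-phase gene Saa3 by label. The design text calls the genotypes littermates, although the strain names give 2 substrains. Mice of both genotypes had received a single intraperitoneal dose of an AAV8 vector used to induce atherosclerosis, with the hAAT promoter, which is active in liver, and a Western diet for 18 weeks. Both pools are therefore models of induced atherosclerosis, with no untreated artery beside them. The labelled age of 12 weeks is shorter than the 18 weeks of diet, so it cannot be the age at collection. Which time it marks is not clear from the labels. The number of mice in a pool is not given, so there is 1 pool per genotype, no replicate, and no test between genotypes. The 4 further samples of the series, macrophages cultured from bone marrow (2 untreated and 2 with 100 ng/mL SAA3 for 24 h), were not analysed here.

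The pool labelled wild-type kept 833 cells with a mean of 8751 molecules, and the pool labelled Saa3-/- kept 823 with a mean of 6357. No cell barcode was shared between the pools. Saa3, at chr7:46711998-46715700, went against the label: 1079 molecules, or 148 CPM (counts per 1000000 molecules of that cell group), were counted in the pool labelled wild-type and 1268, or 242 CPM, in the pool labelled Saa3-/-. In the latter, 1124 of these molecules lay in 2 fibroblast-like cells, and macrophage-like cells had 29.0 CPM of Saa3 there against 373 CPM in the pool labelled wild-type. Which tag belongs to which genotype is known only from the names of the deposited tables, so each comparison below is between the pools as labelled. The sort's own marker Ptprc (CD45) was found in 96.4% and 90.6% of macrophage-like cells and in 58.1% and 44.8% of fibroblast-like cells, at 788 and 758 CPM against 159 and 73.7 CPM. The presence of 153 fibroblast-like and 174 smooth-muscle-like cells after a CD45 sort means that stromal levels here come from the cells that passed it, and shares of cells are set by it.

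Cells were typed singly by fixed markers, none of them a complement gene, and a name ending in -like means that rule and no more. The pool labelled wild-type held 195 macrophage-like, 145 T-cell-like, 55 B-cell-like, 86 fibroblast-like and 108 smooth-muscle-like cells. In the pool labelled Saa3-/- these types had 138, 165, 107, 67 and 66 cells, and a further 77 and 103 cells of the pools had no type. Macrophage-like cells made up 23.4% of the first pool (95% exact binomial interval 20.6 to 26.4) and 16.8% of the second (14.3 to 19.5). Intervals throughout are 95%, exact (Poisson, binomial or conditional binomial) and cover counting error only, neither the spread between mice nor that between cells. Molecules freed from broken cells give every type a low level of abundant transcripts, so T-cell-like cells, which should lack these genes, served as the background. For Cd55, which lymphocytes carry, smooth-muscle-like cells served instead.

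The classical pathway begins with C1q, whose A, B and C chains are encoded by C1qa (chr4:136895917-136898803), C1qb (chr4:136880129-136886187) and C1qc (chr4:136889804-136893065), given as whole protein-coding genes on the minus strand of GRCm38. Among types with at least 20 cells C1q was highest in macrophage-like cells in both pools. Summed over the 3 chains, the level was 10532 CPM in the macrophage-like cells of the pool labelled wild-type (10399 to 10666; 24009 molecules) and 9277 CPM in those of the pool labelled Saa3-/- (9106 to 9451; 11211 molecules). The T-cell-like background was 398 and 386 CPM. A C1q molecule was found in 195 of 195 and 137 of 138 macrophage-like cells, but also in 123 of 145 and 123 of 165 T-cell-like cells, so detection alone separated the types poorly and level separated them well. With every cell thinned to 2000 molecules, the share with C1q was 99.5% and 99.3% in macrophage-like cells and 53.9% and 50.9% in T-cell-like cells. Thinning left out 4 and 1 macrophage-like and 4 and 2 T-cell-like cells that were shallower.

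Single macrophage-like cells varied widely in C1q. In the pool labelled wild-type the median cell had 99 molecules, the lowest 2 and the highest 444, with a quartile range from 7998 to 13369 CPM. In the pool labelled Saa3-/- the median was 71 molecules, the lowest 0 and the highest 326, and the quartile range was 6775 to 12522 CPM. Under 1000 CPM lay 2 cells of the first pool and 6 of the second. The quartile ranges of the pools overlapped.

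**Figure D1:**
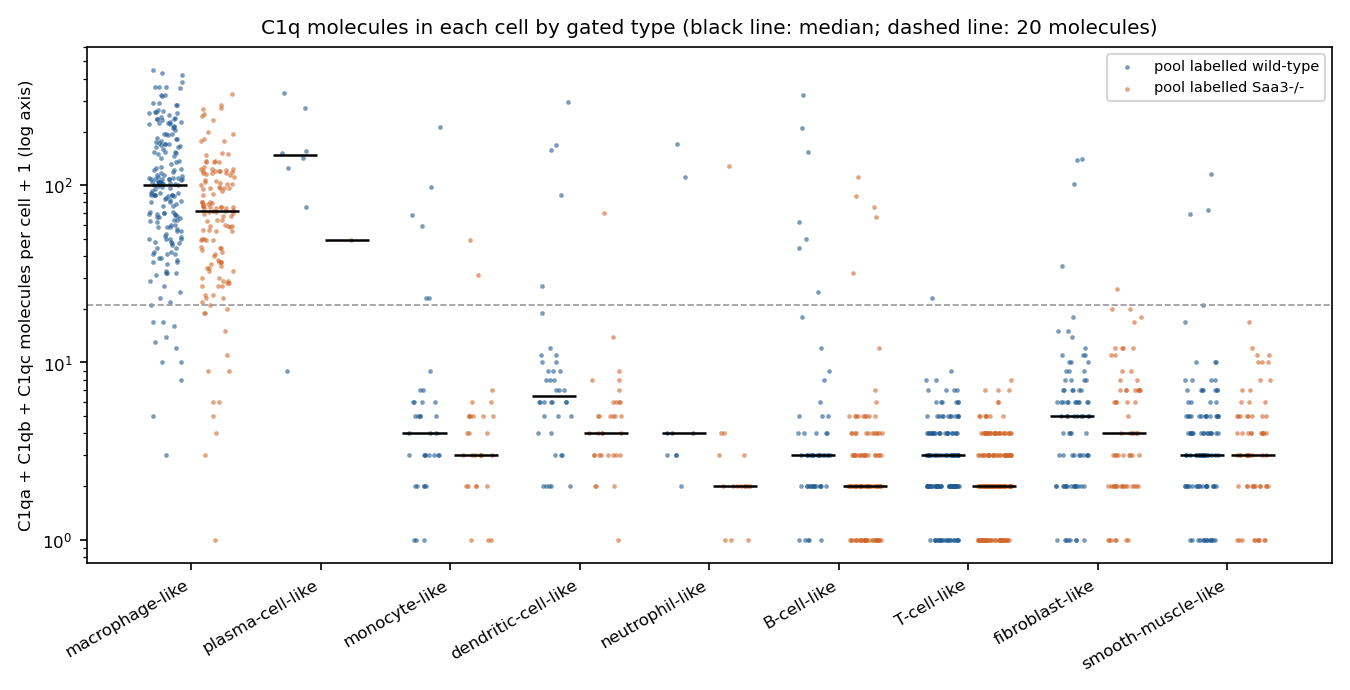
C1qa, C1qb and C1qc molecules summed in each cell (plus 1, log axis), by cell type and pool, with 1 point a cell, a black line at the median and a dashed line at 20 molecules. Macrophage-like cells form a high band (medians of 99 and 71 molecules), as do 7 of the 8 plasma-cell-like cells of the pool labelled wild-type, and the other types lie low apart from a few cells. Molecules are not scaled for depth, whose median in that pool was 26926.5 in plasma-cell-like and 9470 in macrophage-like cells. Scaled, the median cell of these types had 5458 and 10745 CPM of C1q.

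The 3 chains had like proportions in the macrophage-like cells of both pools. Of the C1q molecules counted in macrophage-like cells, C1qa, C1qb and C1qc made up 20.0%, 47.2% and 32.7% in the pool labelled wild-type and 19.3%, 47.8% and 33.0% in the pool labelled Saa3-/-. These are shares of counted molecules, not corrected for transcript length. Outside macrophage-like cells the share of C1qb was higher, 49.7% and 53.0%. Macrophage-like cells carried 76.9% of all C1q molecules in the first pool (76.4 to 77.3) and 76.2% in the second (75.5 to 76.9). Over the 17 combinations of type and pool with at least 20 cells, C1qa followed C1qb with r = 0.98 and C1qc with r = 0.97, on log2(CPM + 1). These points share their libraries and the free RNA in them.

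The RefSeq promoters of 2 genes highest in macrophage-like cells, C1qb and C3ar1, are shown because both peaked in this type and had like levels across types (r = 0.89 over the same 17 combinations). Each runs from 250 bases before the gene's start to 50 after it, 5′ to 3′ on the gene's minus strand (GRCm38.p6), with C1qb at chr4:136886151-136886450 and C3ar1 at chr6:122856108-122856407. Capitals mark GAGGAA, the core of PU.1 sites, in C1qb and TGANTCA, the AP-1 site, in C3ar1.
C1qb: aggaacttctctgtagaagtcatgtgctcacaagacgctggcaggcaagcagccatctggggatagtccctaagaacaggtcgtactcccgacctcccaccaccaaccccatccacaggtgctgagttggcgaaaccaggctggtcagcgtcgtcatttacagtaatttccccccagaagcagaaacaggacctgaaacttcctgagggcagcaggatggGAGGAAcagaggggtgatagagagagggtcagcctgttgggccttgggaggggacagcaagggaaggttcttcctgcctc
C3ar1: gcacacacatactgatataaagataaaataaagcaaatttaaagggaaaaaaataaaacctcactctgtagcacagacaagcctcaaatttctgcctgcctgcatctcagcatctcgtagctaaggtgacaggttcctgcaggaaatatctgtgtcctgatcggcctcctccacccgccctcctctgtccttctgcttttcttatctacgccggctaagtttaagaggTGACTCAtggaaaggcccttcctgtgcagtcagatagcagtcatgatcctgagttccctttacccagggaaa
The GAGGAA match lies 30 bases before the C1qb start, and C1qc, whose RefSeq start lies 151 bases inside its GENCODE transcript, holds it on the opposite strand of its window. It occurs, on either strand, in 28.3% of the 32851 mouse promoters of the table, beside 2 of the 5 members with a promoter there. The AP-1 match lies 22 bases before the C3ar1 start, where the pattern fits both strands, and occurs in 7.81% of promoters. A match describes letters and not a bound site.

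In several other types a few cells held much of the C1q, more so in the pool labelled wild-type. In B-cell-like cells the level was 2868 CPM in the pool labelled wild-type and 1214 CPM in the pool labelled Saa3-/-. Cells with at least 20 C1q molecules, a limit set after the values were seen, numbered 7 of 55 and 5 of 107, and had 6819 and 11170 CPM, with 87.7% and 69.5% of the C1q molecules of the type. In fibroblast-like cells such cells held 53.8% and 7.84%. The remaining B-cell-like cells had 559 and 400 CPM, close to the T-cell-like level. The summed macrophage markers moved with this: they were at 10205 and 13087 CPM in the C1q-rich B-cell-like cells and at 1239 and 1055 CPM in the rest. Such cells also numbered 6 and 2 among monocyte-like, 5 and 1 among dendritic-cell-like, 4 and 1 among fibroblast-like and 4 and 0 among smooth-muscle-like cells, and 7 of the 8 plasma-cell-like cells of the pool labelled wild-type. In the remaining monocyte-like cells C1q was at 373 and 380 CPM, at the background.

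Between pools, C1q of macrophage-like cells was 1.13 times lower in the pool labelled Saa3-/-, a log2 ratio (Saa3-/- over wild-type) of -0.18 (-0.22 to -0.15). The separate chains had -0.24, -0.17 and -0.17. As the background of this comparison, 144 of the 7426 genes with at least 50 molecules in macrophage-like cells, 1.94%, were at least 2-fold apart, 73 higher and 71 lower. No chain reached that, and 53.7% of those genes had a ratio at least as far from 0 as that of summed C1q. With TMM scaling the split of the genes became 45 higher and 92 lower, and C1q was at -0.26. Over all kept cells the difference looked larger, 4284 against 2812 CPM, a log2 ratio of -0.61. With both pools set to the same mix of types it was 3894 against 3239 CPM, or -0.27. The share of macrophage-like cells thus moved with the pool-wide value.

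**Figure D2:**
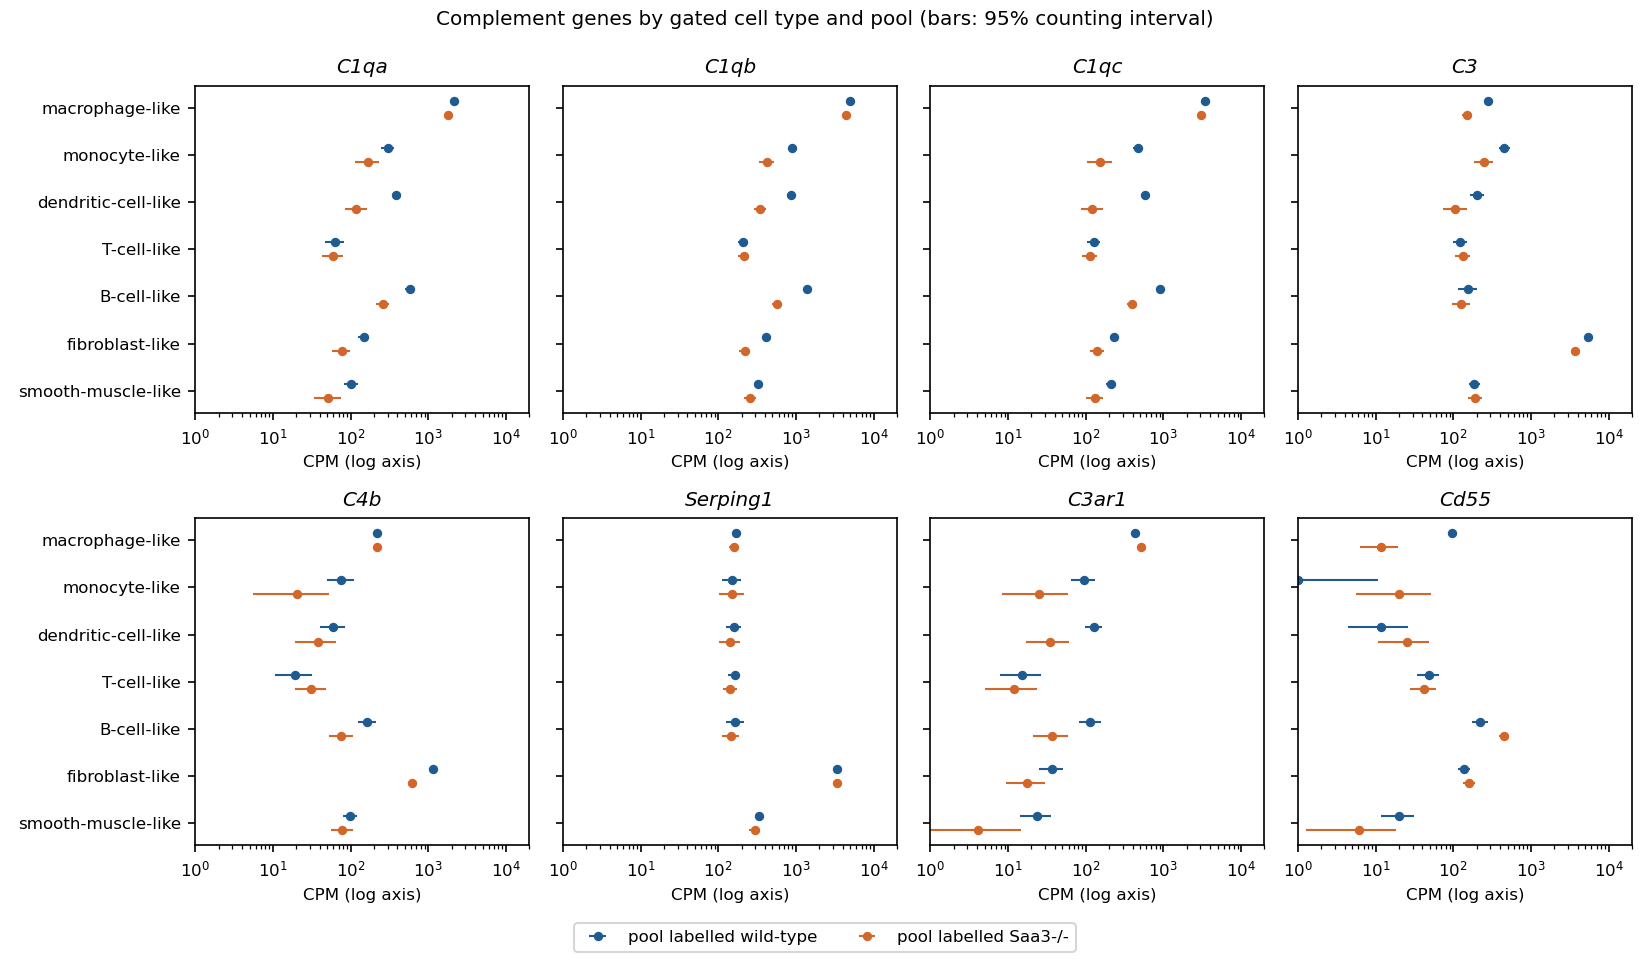
Level of each member (CPM, log axis) by cell type in the 2 pools, with exact Poisson 95% intervals of counting error; a level of 0 or an interval end under 1 is drawn at 1. C1q and C3ar1 peak in macrophage-like cells, C3, C4b and Serping1 in fibroblast-like cells, and Cd55 in B-cell-like cells.

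C4b (chr17:34728380-34743882) encodes C4, the component cleaved by activated C1, and lies on the minus strand as do all members. Its level was highest in fibroblast-like cells, with 1132 CPM in the pool labelled wild-type (1066 to 1202; 1089 molecules) and 609 CPM in the pool labelled Saa3-/- (553 to 668; 446 molecules). Macrophage-like cells had 220 CPM in both pools (201 to 240, and 195 to 248), above the T-cell-like background of 19.05 and 31.05 CPM. B-cell-like, smooth-muscle-like, monocyte-like and dendritic-cell-like cells lay between 20.3 and 163 CPM, and thymocyte-like cells were at the T-cell-like level. Of the 50-base stretches of its transcripts, 34.6% also occur in C4a, which has no column in the tables. How reads common to both were counted is not stated, so its values may hold C4a molecules.

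Within macrophage-like cells C4b was patchy: 99 of 195 and 61 of 138 cells had a molecule, and the highest cells held 31 and 25. It followed the macrophage state, assigned by markers that include no complement gene. Resident-like cells (Lyve1, Folr2, Timd4 and others; 51 and 28 cells) had 474 and 670 CPM. Lipid-laden-like cells (Trem2, Gpnmb, Spp1 and others; 44 and 44 cells) had 39.3 and 30.6 CPM. On the log2 scale resident-like over lipid-laden-like was 3.56 (2.97 to 4.29) and 4.41 (3.66 to 5.36). Inflammatory-like cells (52 and 54) lay between, at 137 and 195 CPM, so the order of these 3 states was the same in both pools. Interferon-like cells (41 and 8) had 228 and 179 CPM, the second on 10 molecules. They lay above inflammatory-like cells in the pool labelled wild-type and below them in the other, so the order of all states differed. The cells of a pool are not replicates, and these are 2 pools of 1 capture. Cells with at least 5 C4b molecules numbered 35 and 18, and 22 and 11 of them were resident-like. In them C6, a component of the terminal pathway, was at 111 and 97.2 CPM, against 4.81 and 0 CPM in cells without C4b. It was found in 15 and 6 of them, and their median depth was 10694 and 9422 molecules, against 8742 and 6556 in cells without C4b.

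C3ar1 (chr6:122847138-122856161) encodes the receptor for the peptide C3a. Its levels were highest in macrophage-like cells in both pools, 431 CPM (405 to 459; 983 molecules) and 509 CPM (470 to 551; 615 molecules), with a T-cell-like background of 15.2 and 11.8 CPM. These cells carried 74.5% and 79.6% of its molecules, and 86.2% and 85.5% of them had a molecule. Unlike C4b it was nearly even over the macrophage states, from 393 to 473 CPM in the pool labelled wild-type and from 459 to 568 CPM in the pool labelled Saa3-/-. The log2 ratio between pools was 0.24 (0.09 to 0.39). In the pool labelled wild-type dendritic-cell-like, B-cell-like and monocyte-like cells had 127, 114 and 93.6 CPM. The 5 highest cells of each held 84.4%, 89.7% and 68.8% of these molecules. In the pool labelled Saa3-/- the other named types with at least 20 cells lay between 4.11 and 36.8 CPM, and the interval of each overlapped that of the next in order. Of the rarer types, 16 neutrophil-like cells had 239 CPM there (134 to 393). These were 15 molecules in 3 of the cells, 12 of them in a single cell.

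C1q differed less between states than C4b. Resident-like cells had 12560 and 10821 CPM, lipid-laden-like cells 8986 and 7944 CPM, and inflammatory-like cells 9067 and 9273 CPM. Interferon-like cells had 11328 and 13109 CPM, but the second value rests on 8 cells against 41. The ratio of resident-like to lipid-laden-like was 1.40 and 1.36, in the same direction in both pools. The interval of the difference between inflammatory-like and lipid-laden-like included 0 in the pool labelled wild-type (log2 -0.04 to 0.07) and lay above it in the pool labelled Saa3-/- (0.16 to 0.29).

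**Figure D3:**
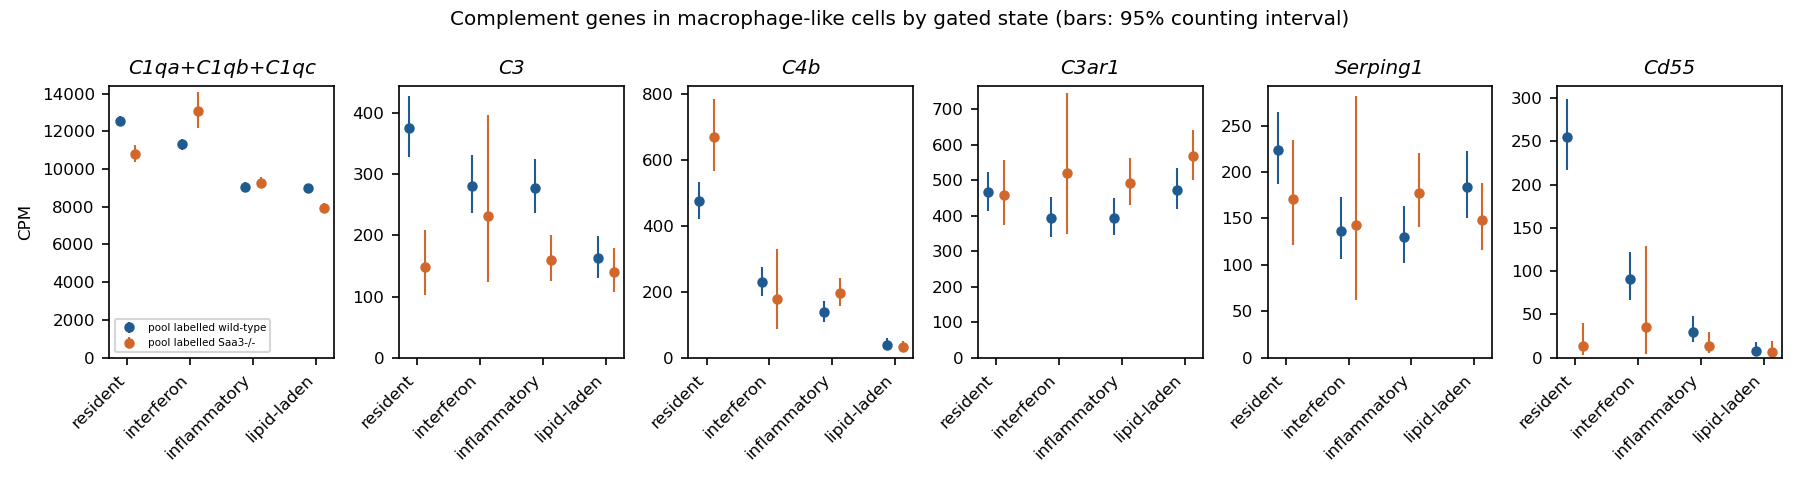
Level (CPM) of members in the macrophage-like states of each pool, with exact Poisson 95% intervals of counting error. C4b runs from 474 and 670 CPM in resident-like to 39.3 and 30.6 CPM in lipid-laden-like cells, and Cd55 is highest in the resident-like cells of the pool labelled wild-type (255 against 13.5 CPM).

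C3 (chr17:57203970-57228136) encodes the central component, at which the pathways meet, and Serping1 (chr2:84765387-84775444) encodes C1 inhibitor, which inactivates C1r and C1s. Both were highest in fibroblast-like cells. C3 stood there at 5375 CPM in the pool labelled wild-type (5229 to 5523; 5169 molecules) and 3740 CPM in the pool labelled Saa3-/- (3601 to 3883; 2741 molecules), and these cells held 77.6% and 78.8% of all C3 molecules. The next type with at least 20 cells, monocyte-like, had 453 and 248 CPM, against a T-cell-like background of 122 and 132 CPM, and in the pool labelled Saa3-/- its interval overlapped that of the type after it. The C3 promoter is shown as that of a gene highest in fibroblast-like cells (chr17:57228087-57228386, GRCm38.p6, minus strand, from RefSeq as above), with capitals on TTGCNNAA, the C/EBP core.
C3: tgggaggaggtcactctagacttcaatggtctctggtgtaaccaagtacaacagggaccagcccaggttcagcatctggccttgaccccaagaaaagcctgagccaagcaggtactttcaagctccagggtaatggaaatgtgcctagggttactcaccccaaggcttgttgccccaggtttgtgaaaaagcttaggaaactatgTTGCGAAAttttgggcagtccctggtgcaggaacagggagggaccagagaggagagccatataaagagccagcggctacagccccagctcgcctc
This match lies 45 bases before the start, and 10.8% of promoters hold it on either strand. Neither GAGGAA nor TGANTCA occurs in the window. The C1qb window lacks TGANTCA too, and that of C3ar1 lacks GAGGAA, so C1qb and C3ar1 share neither.

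Serping1 was at 3405 and 3343 CPM in fibroblast-like cells (3290 to 3524, and 3212 to 3478), with 3275 and 2450 molecules, and 73.2% and 75.1% of its molecules lay there. Smooth-muscle-like cells came next with 337 and 294 CPM. In the pool labelled wild-type the intervals of macrophage-like (170 CPM), B-cell-like (166), dendritic-cell-like (158) and monocyte-like cells (149) overlapped that of the T-cell-like background of 163 CPM, so their values are read as background. In the pool labelled Saa3-/- these 4 types lay between 141 and 161 CPM around a background of 143 CPM, with thymocyte-like cells at 208 CPM.

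At least 5 molecules of each of C3, C4b and Serping1 were counted in 24 of 86 fibroblast-like cells with the wild-type tag and in 20 of 67 with the Saa3-/- tag, and in 0 of 145 and 0 of 165 T-cell-like cells, which are shallower. At 1 molecule of each the counts were 54 and 38 fibroblast-like cells and 3 and 4 T-cell-like cells. The levels were uneven: the median cell held 17.5 and 15 C3 molecules, the highest 443 and 341. For C4b the median was 1 molecule in both pools and the highest cell held 163 and 85. The fibroblast-like cells were also divided by adventitial-fibroblast genes (Pi16, Dpp4, Clec3b, Sema3c, Ly6c1 and Cd248), a list chosen after the values were seen. Clec3b and Pi16 were also the genes most like C3 across cell types and pools (r = 0.95 and 0.94), so the division is not independent of C3. With cartilage-gene cells left out, the 55 and 40 cells with at least 1000 CPM of that list had 7801 and 5647 CPM of C3, 1596 and 614 CPM of C4b and 4850 and 5216 CPM of Serping1. The 25 and 21 cells under it had 1210 and 1839 CPM of C3, 363 and 352 CPM of C4b and 1007 and 1782 CPM of Serping1. The cartilage-gene cells left out, 6 in each pool, had 146 and 943 CPM of C4b. The limit cuts a continuous range, and 28 and 20 cells lie within 2-fold of it.

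**Figure D4:**
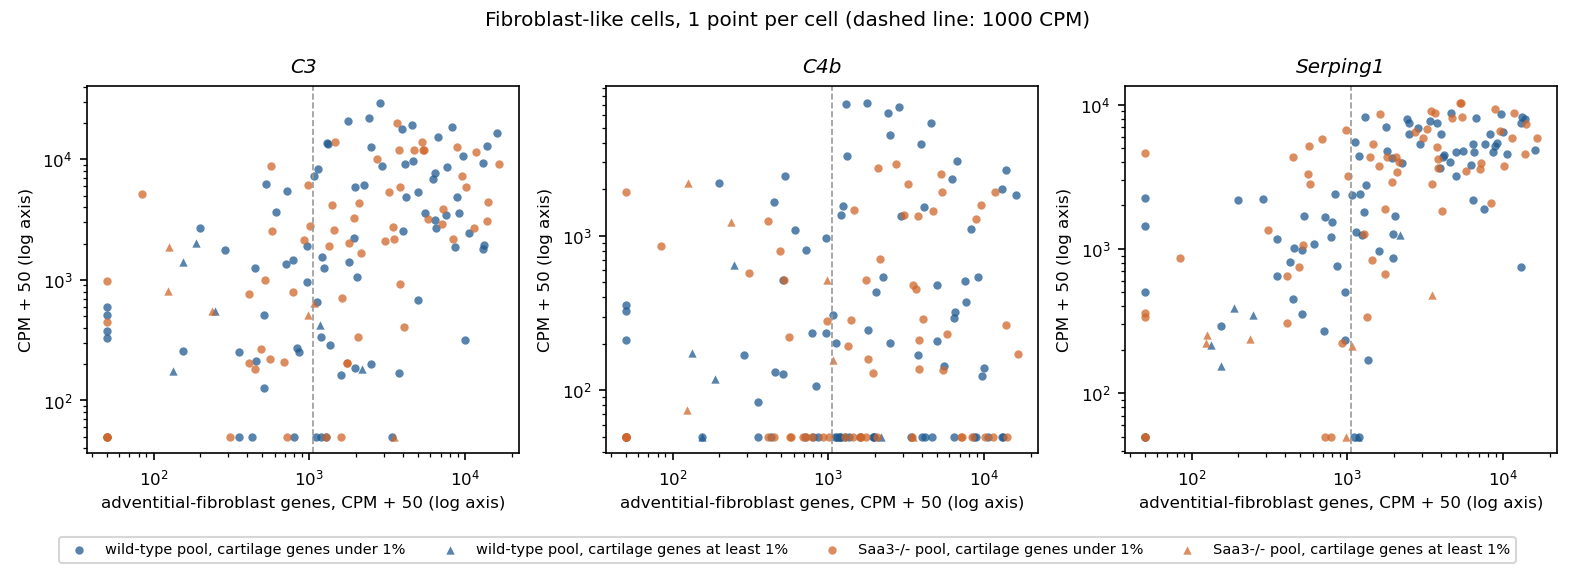
Fibroblast-like cells by their level of adventitial genes (horizontal, CPM + 50, log axis) and of C3, C4b or Serping1 (vertical, CPM + 50, log axis), coloured by pool and shaped by cartilage-gene content. Cells with at least 1000 CPM of adventitial genes and under 1% cartilage genes have more of each member than such cells below that limit, and the pools overlap.

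Between pools, C3 in fibroblast-like cells had a log2 ratio of -0.52 (-0.59 to -0.46) and C4b of -0.89 (-1.06 to -0.74). Serping1 was at -0.03 (-0.10 to 0.05). These are ratios of summed molecules. The median fibroblast-like cell had 1788 CPM of C3 in the pool labelled wild-type and 2098 CPM in the pool labelled Saa3-/-. The upper quartile of C3 went the other way, at 6711 and 5197 CPM. For C4b the medians were 152 and 121.5 CPM. Of the 5495 genes tested in this type 5% were at least 2-fold apart, and none of the 7 members tested was. The members' median log2 ratio was -0.73 and that of all genes -0.04. With all cells of the type, 20.9% of the genes lay at least as far from 0 as C3, and 6.57% as far as C4b. Without the cells with at least 20 C1q molecules, 4 and 1, the members' median was -0.01. Those cells were chosen by C1q, whose 3 chains are among the 7 members, so that median moves with the choice. C3 was then at -0.54 and C4b at -1.065 (-1.235 to -0.90), past the 2-fold limit. Cells with at least 1% of molecules from cartilage genes such as Col2a1 and Acan, 6 in each pool, moved the values of C3, C4b and Serping1. Without them, a choice made after the values were seen, C3 was at 5728 against 4405 CPM (-0.38), C4b at 1208 against 529 CPM (-1.19, past the 2-fold limit) and Serping1 at 3641 against 4096 CPM (0.17). A single cartilage-gene cell of the pool labelled Saa3-/- held 85 of its 446 C4b molecules. In cells below the adventitial limit C3 was higher in the pool labelled Saa3-/- (log2 ratio 0.60, 0.39 to 0.82), and in those above it lower (-0.47, -0.54 to -0.39). Below the limit a single cell of the pool labelled Saa3-/- held 151 of the 355 C3 molecules of 21 cells. The highest cell of the other pool held 65 of 340, and the median was 3 molecules in both. The ratio without that single cell was not computed. C1q in fibroblast-like cells was at 799 against 435 CPM, and without the cells with at least 20 C1q molecules at 406 against 423 CPM.

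In macrophage-like cells C3 was at 276 CPM in the pool labelled wild-type (255 to 299) and 151 CPM in the pool labelled Saa3-/- (130 to 175), a log2 ratio of -0.87 (-1.11 to -0.63). The second value overlaps its T-cell-like background of 132 CPM (106 to 162), and the first does not. It was found in resident-like cells at 376 and 148 CPM and in lipid-laden-like cells at 162 and 140 CPM. After thinning to 2000 molecules, 34.6% and 22.6% of macrophage-like cells had a C3 molecule, against 22.7% and 23.9% of T-cell-like cells, so in the pool labelled Saa3-/- macrophage C3 is read as background. 3.10% of genes lay at least as far from 0.

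Cfb (chr17:34856374-34862518) encodes factor B of the alternative pathway and was near the limit of detection. The pool labelled wild-type gave 14 molecules, 7 from fibroblast-like and 5 from macrophage-like cells, and the pool labelled Saa3-/- gave 4, with 2 and 1 from these types. No ratio is drawn from such counts. Of its 50-base stretches, 73.0% also occur in Gm20547, a read-through gene, so molecules may have been lost to it, and the way of counting is not stated.

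Cd55 (chr1:130439027-130462744) encodes decay-accelerating factor, which breaks up C3 convertases on the cell's own surface. It was the member with the largest ratio between pools. Macrophage-like cells held 222 molecules in the pool labelled wild-type, 97.4 CPM (85.0 to 111), and 14 in the pool labelled Saa3-/-, 11.6 CPM (6.33 to 19.4). The log2 ratio was -3.02 (-3.97 to -2.29), and 0.0673% of the genes tested in this type lay at least as far from 0. The background in smooth-muscle-like cells was 19.9 and 6.17 CPM, so only the first value stood above it. Its molecules were concentrated in few cells: in the pool labelled wild-type, 22 macrophage-like cells had at least 3 molecules, up to 34 in a cell, and 0 of 138 did in the other pool, which, at a floor of 3 counts, allows up to 2.17% of cells with so many molecules at the lower depth of that pool. Of the 22 cells 16 were resident-like. Among resident-like cells the counts were 154 and 3 molecules, 255 and 13.5 CPM, while lipid-laden-like cells had 4 and 3 molecules. The limit of 3 molecules was set after the values were seen. Without those 22 cells the counts were 47 and 14 and the log2 ratio -1.03.

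The Cd55 promoter is shown because this gene had the largest difference (chr1:130462695-130462994, GRCm38.p6, minus strand, from RefSeq as above), with capitals on TGCTGAC, the MAF half-site, 195 bases before the start. It occurs in 4.67% of promoters on either strand. The interferon-stimulated response element, searched on both strands and found in 3.44% of promoters, was in none of the 5 members' windows.
Cd55: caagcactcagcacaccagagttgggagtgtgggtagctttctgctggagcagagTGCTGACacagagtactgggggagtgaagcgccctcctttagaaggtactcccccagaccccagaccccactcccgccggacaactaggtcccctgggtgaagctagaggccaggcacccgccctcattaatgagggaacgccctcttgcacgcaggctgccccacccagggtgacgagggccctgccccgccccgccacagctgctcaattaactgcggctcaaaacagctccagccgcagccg
Of the 50-base stretches of Cd55, 7.998% are shared with its neighbour Cd55b.

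The Cd55-rich macrophage-like cells differed from those without Cd55 in the same pool in several other genes, given as values only. Saa3 was at 1808 CPM in the 22 cells and 140 CPM in the 139 cells at 0, the B-cell attractant Cxcl13 at 3575 and 159 CPM, Lyve1 at 817 and 163 CPM and Folr2 at 1292 and 290 CPM. Of the 22 cells, 16 were resident-like and 4 interferon-like, and Lyve1 and Folr2 are markers of the resident state. All resident-like cells of this pool had 594 CPM of Saa3 and 2139 CPM of Cxcl13, and all interferon-like cells 910 and 498 CPM. These state values include the 22 cells and rest on part of the cells of each state. Saa3 was found in 14 of 51 resident-like and 11 of 41 interferon-like cells, with up to 138 and 244 molecules in a cell. Cxcl13 was found in 25 and 10 of them, with up to 259 and 159 molecules. Levels of these states without the 22 cells were not computed. Saa3 was found in 10 of the 22 cells. The B-cell markers Cd79a and Ms4a1 were also higher in the 22 cells, at 120 and 41.0 CPM against 36.9 and 14.4 CPM, and present in 7 and 5 of them. Their median depth was 12862 molecules against 8107. The part of depth and of B-cell molecules in the difference between pools was not tested; with the deeper pool thinned the log2 ratio was -3.00, and without cells carrying markers of a second lineage it was -3.36.

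In B-cell-like cells the pools stood the other way round. Among types with at least 20 cells Cd55 was highest there, with 222 CPM in the pool labelled wild-type (175 to 278; 76 molecules) and 448 CPM in the pool labelled Saa3-/- (388 to 516; 195 molecules), a log2 ratio of 1.01 (0.63 to 1.42). A molecule was found in 29 of 55 and 73 of 107 cells. At 2000 molecules a cell, with 1 and 5 cells left out, the shares were 29.6% (18.0 to 43.6) and 56.9% (46.7 to 66.6). In this type 7.46% of the 2962 genes tested were at least 2-fold apart, the widest background of the 5 types, and 7.26% lay at least as far from 0 as Cd55. Fibroblast-like cells came second with 138 and 160 CPM, log2 ratio 0.21 (-0.16 to 0.58). Without the highest cell of each pool, the latter counts were 114 and 67 molecules and the ratio -0.34. T-cell-like cells had 48.3 and 41.4 CPM. Of the rarest types, 36 molecules came from 5 mast-cell-like cells in the pool labelled wild-type and 22 from 4 endothelial-like cells in the pool labelled Saa3-/-.

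**Figure D5:**
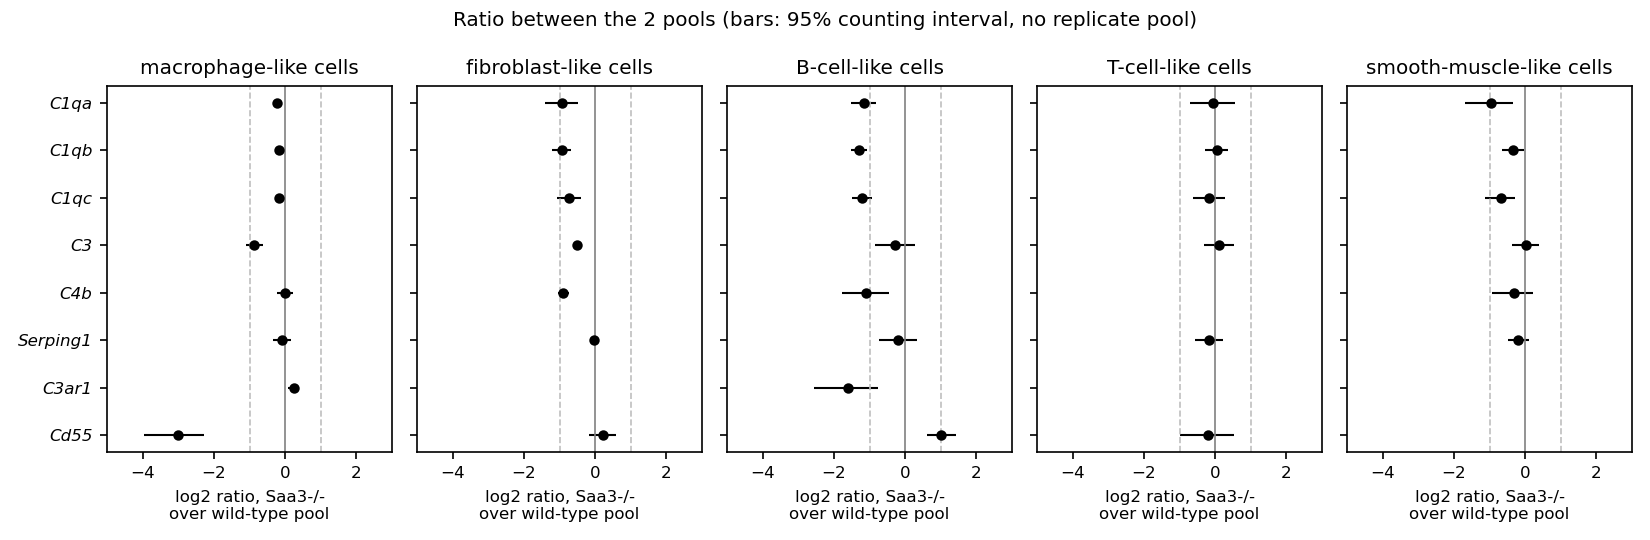
Log2 ratio (pool labelled Saa3-/- over pool labelled wild-type) of each member in the compared types, with exact 95% intervals of counting error and dashed lines at 2-fold; a member with under 50 molecules in a type is not drawn. Cd55 lies at -3.02 in macrophage-like and 1.01 in B-cell-like cells, and the C1q chains between -0.24 and -0.17 in macrophage-like cells.

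Of the 8 members tested in B-cell-like cells, 5 were at least 2-fold lower in the pool labelled Saa3-/- and 1, Cd55, was higher. Of all genes tested in this type, 7.46% were at least 2-fold apart in either direction. The 5 were the C1q chains (log2 ratios -1.17, -1.28 and -1.21), C4b (-1.10) and C3ar1 (-1.60). These genes were carried by the few C1q-rich cells described above, 7 of 55 in one pool and 5 of 107 in the other. Without them C1q was at -0.48 (-0.83 to -0.13), C4b turned to 0.36 on 6 and 15 molecules, C3ar1 was left with 2 and 3 molecules, and Cd55 was at 0.91 (0.47 to 1.39). The members' median log2 ratio in macrophage-like cells was -0.17 beside 0.03 for all genes tested. Of the 8 members tested there 1, Cd55, was at least 2-fold apart, with 1.94% of genes so far apart. In T-cell-like cells none of 6 was, with 3.02% of genes so far apart and a median of -0.12 beside 0.01. In smooth-muscle-like cells none of 6 was either, with 1.95% of genes so far apart and a median of -0.33 beside 0.01. Without the cells with at least 20 C1q molecules, 4 and 0, that median turned to 0.12, and in B-cell-like cells the members' median went from -1.13 to -0.15. Both medians include the 3 C1q chains, by whose sum the cells were chosen, so they move with the choice.

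The rest of the pathway was read from a list of 53 complement genes, of which 50 have a column and 25 reached 50 molecules in a compared type. Highest levels of these genes are among the 8 types with at least 20 cells in both pools. Rarer types, such as neutrophil-like and endothelial-like cells, were left out of that ranking. In macrophage-like cells none of 21 tested genes was 2-fold apart (median log2 ratio 0.02), in smooth-muscle-like none of 12 and in T-cell-like none of 7. Few genes of any kind were so far apart in these types, 1.94%, 1.95% and 3.02% of all genes tested. Among the starting proteases, C1ra and C1s1, which C1 inhibitor blocks, were highest in fibroblast-like cells at 784 and 700 CPM and at 1055 and 867 CPM. Clu, clusterin, a regulator of the terminal complex, was highest in smooth-muscle-like cells at 1878 and 1936 CPM. Cfp, properdin, which stabilises the alternative convertase, was highest in monocyte-like cells at 734 and 390 CPM, and in macrophage-like cells at 707 and 390 CPM (log2 ratio -0.86, -1.01 to -0.71). C5ar1, the C5a receptor, was highest in macrophage-like cells at 346 and 328 CPM, and the integrin chains of complement receptor 3, Itgam and Itgb2, in monocyte-like cells at 626 and 416 and at 790 and 578 CPM.

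Further genes of the list had these levels, with the same limit to types of at least 20 cells in both pools. C2, the partner of C4 in the classical convertase, reached 130 and 95.5 CPM, and the scavenger lectin Colec12 347 and 383 CPM, both in fibroblast-like cells. The terminal components C7 and C6 reached 127 and 77.8 CPM in fibroblast-like cells and 29.4 and 26.5 CPM in macrophage-like cells. Among membrane regulators, Thbd, thrombomodulin, reached 223 and 171 CPM in fibroblast-like cells and Cd59a, an inhibitor of the membrane attack complex, 178 and 200 CPM in smooth-muscle-like cells. Calr and Lrp1, which take part in uptake of C1q-tagged cells, were highest in fibroblast-like cells at 1355 and 1130 CPM and at 842 and 842 CPM. In fibroblast-like cells, where 5% of all genes were at least 2-fold apart, 3 of 16 tested genes were so far lower in the pool labelled Saa3-/-: Ptx3 (log2 ratio -1.01), Cfp (-1.12) and Itgb2 (-1.13). Without the C1q-rich cells these were at -1.17, -0.76 and -0.91. In B-cell-like cells, where 7.46% of all genes were at least 2-fold apart, 1 of 9 was higher, Cr2, the receptor CD21 of mature B cells (146 and 338 CPM, log2 ratio 1.203), and 4 were lower, Cfp (-1.95), C5ar1 (-1.44), Itgam (-1.41) and Itgb2 (-1.24). Without the C1q-rich cells these 5 stood at 0.77, -1.16, -0.36, -1.73 and -1.09.

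Among 8050 genes that were neither gate or state markers nor complement genes, some followed the members closely over the 17 combinations of 9 types and 2 pools, on log2(CPM + 1). Summed C1q was most like Trf (Pearson r = 0.96), Stab1 (0.94) and Tmem86a (0.93). C3 was most like Clec3b (0.95), Pi16 (0.94) and Chad (0.93), and C4b like Rnase4 (0.90), Col14a1 (0.89) and Ildr2 (0.88). Serping1 was most like Gsn (0.99), Igfbp5 (0.96) and Prg4 (0.96). Chad and Prg4 are also on the cartilage list, and Clec3b and Pi16 on the adventitial list. The combinations share 1 capture and its free RNA, and the figures describe likeness of pattern across these types only.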

How the data were processed

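Reads were processed by the authors with BD Rhapsody's pipeline (1.11.1) on GRCm38 with GENCODE release 19, intronic reads included, per the file headers, and they deposited 1 table per sample tag of counts of molecules per gene and cell. The submitters' processing notes name R 4.3.1, Seurat 4.3.0 and mm10. A deposited tag table lists 2401 putative cells, of which 647 are undetermined and 11 are multiplets that are absent from the count tables. No doublet caller was run here.

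Cells with at most 25% mitochondrial molecules were kept, which removed 56 and 31. The pools kept 7289593 and 5231922 molecules. With Python 3.11.15 and scanpy 1.11.5, counts were scaled to 10000 per cell, log-transformed and z-scored, and a cell took the type with the highest mean over its markers if at least 3 were found (macrophage states, 2). Levels are CPM of summed counts. A gene was tested with at least 50 molecules over both pools in a type with at least 50 cells in each, with a pseudocount of 0.5 in the log2 ratio, and a 2-fold ratio was the limit. The functions were tested on simulated data. TMM used edgeR 4.0.16. Alternatives were other cell filters, gates, clusters, scalings, pseudocounts and count limits, and the removal of cells. Gene positions are those of GENCODE release 21 (GRCm38).

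The members and lists were chosen with earlier results of these data known. Named pathway genes are those at least 2-fold apart and the 4 of each role with the highest level. Named like genes are the 3 with the highest r, among genes with at least 200 molecules. C4a, Apcs and Vtn of the pathway list are not in the tables. Others named were chosen after their values were seen. The vector's transgene and 1 gene of the pathway list are not reported here.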

Additional observations from a re-analysis of the deposited data

Results flagged for a closer look

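Cd55 moved in opposite directions between the pools in 2 cell types. Its log2 ratio (pool labelled Saa3-/- over pool labelled wild-type) was -3.02 in macrophage-like cells, on 222 and 14 molecules, and 1.01 in B-cell-like cells, on 76 and 195 molecules. With 1 pool per genotype, the difference between these ratios was not tested.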

How the results depend on the processing

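No paired analysis was possible because each genotype has 1 pool, for which reason no replicate could be left out either. The log2 ratio of C1q in macrophage-like cells kept its sign in 11 of 11 alternatives and was -0.22 with all deposited cells, -0.12 with Leiden clusters named by the same markers and -0.26 with TMM scaling. That of C3 in fibroblast-like cells kept its sign in 12 of 12, at -0.30 with each cell weighing the same and -0.38 without cartilage-gene cells (chosen after seeing the data). The share of C1q molecules in macrophage-like cells was 86.4% and 83.3% with clusters, and 82.9% and 82.2% without the 139 cells carrying markers of a second lineage. Genes at least 2-fold apart in macrophage-like cells numbered 500 of 9995 at a minimum of 20 molecules and 4221 of 19258 with no filter. C4b in B-cell-like cells turned to 0.36 without the cells holding at least 20 C1q molecules, an alternative also chosen after seeing the data, which leaves 6 and 15 molecules. Cd55 in macrophage-like cells stayed at least 2-fold lower in 13 of 13 alternatives, from -4.03 in resident-like cells alone (added after seeing the data) to -1.03 without cells of at least 3 molecules, with -2.11 in clusters. C4b in macrophage-like cells, near 0, was at -0.42 with each cell weighing the same. The ratios of Serping1 and Cd55 in fibroblast-like cells changed sign in 2 of 12 alternatives each. Cfb, with 14 and 4 molecules in all, and members with under 50 molecules in a type are too sparse for a ratio at this depth.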
